A study of Mus musculus with 24 samples.

Results

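Striatal projection neurons, also called medium spiny neurons, make up most of the neurons of the striatum, the input stage of the basal ganglia that helps to select and learn movements. 9 genes that mark these cells were followed here across the mouse brains of the series: Drd1 and Tac1 of the direct pathway, Drd2, Adora2a, Penk and Gpr6 of the indirect pathway, and Ppp1r1b, Pde10a and Rgs9, which act in cyclic AMP and G protein signalling in both. They were found as the rows of the brain table of normalised counts whose Ensembl identifier belongs to one of these symbols. All 9 had a row among the 55469 rows of the table, and all 9 passed the filter on low values (10 normalised counts on average) that left 19228 genes for testing.

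The series measured RNA by sequencing in 12 brains and 12 livers of male C57BL/6N mice at 10 weeks of age. There were 4 genotypes with 3 brains each, which carry the replicate letters A, B and C. Beside WT mice these were homozygotes for a CRISPR-Cas9 deletion of a single gene for the tRNA that carries phenylalanine, called tRNA-Phe-1-1-/- in the first strain, tRNA-Phe-2-1-/- in the next and tRNA-Phe-3-1-/- in the last. The deletions are present in every cell of the animal and not only in neurons, the mice were not treated, and how many founder animals stand behind each strain is not given in the sources used here. The deleted tRNA genes were not analysed here, so the genotype labels were not checked on them. By the methods of the study the RNA came from separate mice, and the labels name the brains of one genotype only by their letters. The labels describe tissue pieces of 3 mm by 3 mm, while the methods of the study speak of total brain RNA, so how much of the striatum entered each library is not known.

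In direct-pathway neurons, dopamine acts through the D1 receptor, which raises cyclic AMP and makes the cells fire more readily, and in indirect-pathway neurons it acts through the D2 receptor, which lowers cyclic AMP. An adenosine receptor, encoded by Adora2a, opposes the D2 receptor in the same indirect-pathway cells. Both kinds of neuron use GABA as their transmitter and release peptides beside it, substance P in the direct pathway and enkephalin in the indirect pathway.

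The reads recovered from the normalised counts numbered 30365760 to 46225360 per brain. Of the 12 brains, WT replicate C and tRNA-Phe-1-1-/- replicate A stood apart with the lowest values of every striatal projection neuron gene. The spread and the comparisons with WT are therefore given with and without these brains. The 8 markers shared by all neurons were nearly level, with scores of -0.33 to 0.20 (a score averages, over the genes of a list, the log2 distance of a brain from the 12-brain mean of the gene).

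The direct-pathway genes differed far more between single brains than a typical gene did. Drd1, on chromosome 13 and encoding the D1 dopamine receptor, had 1231, 1872 and 415 normalised counts in WT replicates A, B and C. In tRNA-Phe-1-1-/- brains Drd1 had 305, 4619 and 5318 normalised counts. In tRNA-Phe-2-1-/- brains Drd1 had 3838, 4367 and 1127 normalised counts, and in tRNA-Phe-3-1-/- brains 3068, 2024 and 1982. Drd1 was thus lowest in a tRNA-Phe-1-1-/- brain and highest in another tRNA-Phe-1-1-/- brain, 17.4-fold apart, and the range of that genotype enclosed all other brains. The 3 tRNA-Phe-3-1-/- brains lay above all 3 WT brains.

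Tac1, on chromosome 6 and encoding the precursor of substance P, had 784, 868 and 268 normalised counts in WT replicates A, B and C. The tRNA-Phe-1-1-/- brains had 352, 2762 and 3563 normalised counts of Tac1. The tRNA-Phe-2-1-/- brains had 1622, 2206 and 565, and the tRNA-Phe-3-1-/- brains 1412, 799 and 1164. WT replicate C was the lowest brain for this peptide gene and tRNA-Phe-1-1-/- replicate C the highest, 13.3-fold apart, and the WT range overlapped that of each knockout.

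**Figure D1:**
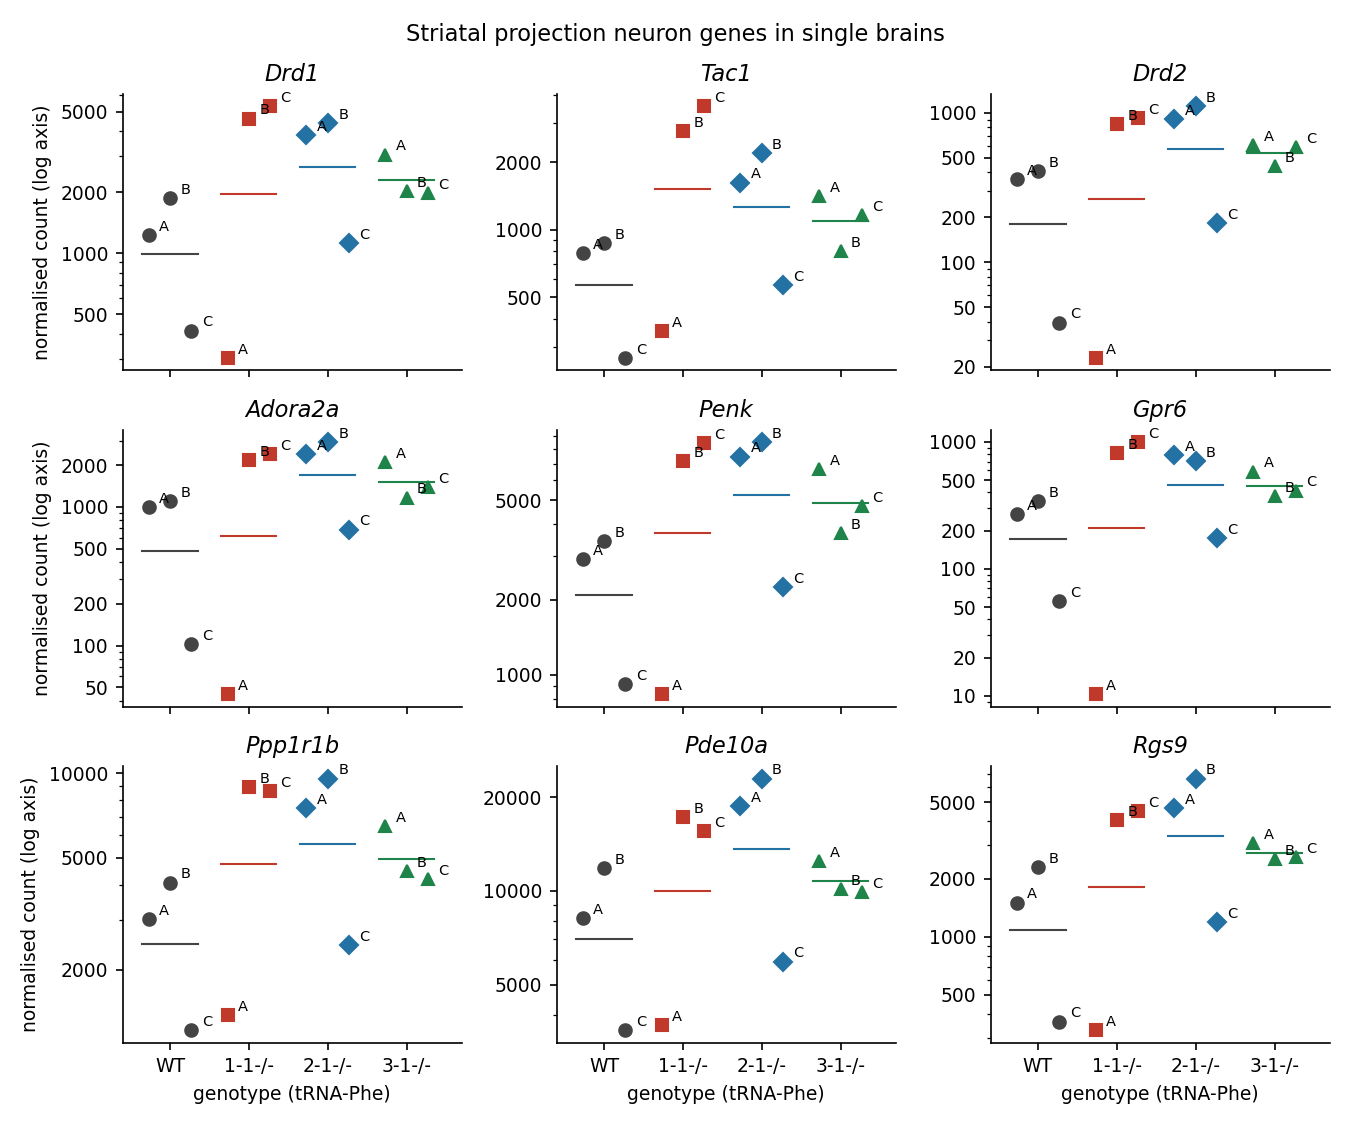
Normalised counts (log axis) of the 9 striatal projection neuron genes in 12 brains, by genotype; letters are the replicates and horizontal lines the group means on the log2 scale. In each of the 9 panels WT replicate C and tRNA-Phe-1-1-/- replicate A are the lowest points and tRNA-Phe-2-1-/- replicate C the next.

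The indirect-pathway receptors spread most. Drd2, on chromosome 9 and encoding the D2 dopamine receptor, had 362, 407 and 39.5 normalised counts in WT replicates A, B and C and 22.9, 839 and 918 in the tRNA-Phe-1-1-/- brains. The tRNA-Phe-2-1-/- brains had 914, 1111 and 182 normalised counts of Drd2, and the tRNA-Phe-3-1-/- brains 611, 442 and 588. The highest brain held 48.5-fold the lowest, and within the tRNA-Phe-1-1-/- group replicates B and C were close to each other and far above replicate A.

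Adora2a on chromosome 10, the gene of that adenosine receptor, had 996, 1098 and 103 normalised counts in WT replicates A, B and C. It had 44.7, 2173 and 2383 in tRNA-Phe-1-1-/- brains, 2394, 2916 and 685 in tRNA-Phe-2-1-/- brains, and 2112, 1165 and 1381 in tRNA-Phe-3-1-/- brains. The span was 65.2-fold. All 3 tRNA-Phe-3-1-/- brains again exceeded all 3 WT brains, while the other genotypes overlapped WT.

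Gpr6, also on chromosome 10, encodes an orphan receptor that raises cyclic AMP and is enriched in indirect-pathway neurons. It had 269, 339 and 55.3 normalised counts in WT replicates A, B and C, 10.3, 815 and 992 in tRNA-Phe-1-1-/- brains, 791, 704 and 174 in tRNA-Phe-2-1-/- brains, and 583, 376 and 414 in tRNA-Phe-3-1-/- brains. At 96.2-fold, Gpr6 had the widest span of the 9 genes. Penk on chromosome 4, which encodes the enkephalin precursor, was the most even of the 4 indirect-pathway genes, with 2911, 3436 and 916 normalised counts in WT and 836, 7145 and 8481 in tRNA-Phe-1-1-/- brains. In tRNA-Phe-2-1-/- brains Penk had 7479, 8529 and 2249 normalised counts and in tRNA-Phe-3-1-/- brains 6684, 3692 and 4749. Its span was still 10.2-fold.

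Of the 3 signalling genes, expressed in both pathways, Ppp1r1b and Pde10a had the smallest spans of the 9 and Rgs9 one between those of Drd1 and Drd2. Ppp1r1b on chromosome 11 encodes DARPP-32, a phosphatase inhibitor that integrates dopamine signals, and ranged 7.87-fold, from 1217 normalised counts in WT replicate C to 9571 in tRNA-Phe-2-1-/- replicate B. Pde10a on chromosome 17, the phosphodiesterase that breaks down cyclic nucleotides in these neurons, ranged 6.43-fold, from 3570 to 22961 normalised counts in the same brains. Rgs9 on chromosome 11, which shortens G protein signals, ranged 20.2-fold, from 328 normalised counts in tRNA-Phe-1-1-/- replicate A to 6623 in tRNA-Phe-2-1-/- replicate B. The order of the brains was similar in all pairs of the 9 genes, of a single pathway or of both, with Spearman's rho from 0.90 to 1.00.

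The within-genotype SD of the 9 genes, pooled over the 4 genotypes on the log2 scale, had a median of 1.41 and ran from 0.93 for Pde10a to 2.05 for Gpr6. The median over all genes tested was 0.21 and their 95th percentile 0.83, so all 9 lay above that percentile. The highest brain held at least 4-fold the lowest for 9 of the 9 genes, against 14.1% of all genes tested. WT replicate C and tRNA-Phe-1-1-/- replicate A were the 2 lowest brains for 9 of 9 genes, which was the case for 2.56% of all genes tested, and tRNA-Phe-2-1-/- replicate C was the next lowest for 9 of 9. Without those 2 brains, the median within-genotype SD was 0.68, with tRNA-Phe-2-1-/- replicate C lowest for every one of the 9 genes and spans of 3.79-fold (Penk) to 6.31-fold (Tac1). In bulk tissue, fewer striatal neurons and less RNA of these genes per neuron cannot be told apart.

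Genotype was compared next, to ask whether loss of a tRNA-Phe gene went with another level of these transcripts. None of the 9 genes differed between a knockout and WT in limma's test (log2 of the normalised count + 1, adjusted by the Benjamini-Hochberg method over all genes tested), although every estimate was above WT. In tRNA-Phe-1-1-/- against WT, 0 of 9 were called (1.05% of all genes tested were) and 9 of 9 estimates were higher, with a median log2 fold change of 0.74 against 0.00 over all genes. In tRNA-Phe-2-1-/- against WT, 0 of 9 were called (0% of all genes) and the median log2 fold change was 1.41, and in tRNA-Phe-3-1-/- against WT, 0 of 9 (0% of all genes) with a median of 1.23. The 3 comparisons share the WT brains, including the low WT replicate C. With all 12 brains and no covariate, no unadjusted p was under 0.05 for any of the 9 genes in limma, while edgeR and DESeq2 on the recovered reads each had 1 such gene in tRNA-Phe-1-1-/- against WT and no call. Their medians for tRNA-Phe-1-1-/- were higher, at 1.17 in edgeR and 1.177 in DESeq2.

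For the direct pathway, Drd1 had a mean of 3414 ± 2715 normalised counts (SD, n = 3) in tRNA-Phe-1-1-/- brains against 1173 ± 730 in WT. The fit compares means of log2 values and not these means, and gave a log2 ratio of 0.99 (SE 0.97, adjusted p = 0.66, limma). Tac1 had the lowest adjusted p of the 9 genes in this comparison, with 2226 ± 1672 normalised counts (SD, n = 3) against 640 ± 325. Its log2 ratio, again from means of log2 values, was 1.42 (SE 0.81, adjusted p = 0.42, limma). Its 95% interval ran from -0.36 to 3.19. For the indirect pathway, the estimate of Gpr6 in tRNA-Phe-1-1-/- was 0.28 with an interval of -2.85 to 3.40, so that neither a several-fold fall nor a several-fold rise could be told from no change. Drd2 had 0.54, Adora2a 0.35 and Penk 0.82 on the log2 scale, and of the signalling genes Ppp1r1b had 0.94, Pde10a 0.51 and Rgs9 0.74, with adjusted p from 0.57 to 0.93 in these 6 (limma).

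In tRNA-Phe-2-1-/- against WT, Adora2a had the largest estimate, a log2 ratio of 1.80 (SE 1.37, adjusted p = 0.94, limma). The log2 ratios of the others there were 1.43 for Drd1, 1.16 for Tac1, 1.65 for Drd2, 1.32 for Penk, 1.41 for Gpr6, 1.182 for Ppp1r1b, 0.96 for Pde10a and 1.62 for Rgs9. In tRNA-Phe-3-1-/- against WT, Adora2a was again highest at 1.64 (SE 1.37, adjusted p = 0.68, limma), and Pde10a lowest at 0.62 (SE 0.65, adjusted p = 0.75, limma). Between them lay Drd1 at 1.23, Tac1 at 0.95, Drd2 at 1.58, Penk at 1.22, Gpr6 at 1.38, Ppp1r1b at 1.00 and Rgs9 at 1.33. The tRNA-Phe-3-1-/- brains were the most alike, with spans of 1.22-fold (Rgs9) to 1.81-fold (Adora2a). For 7 of 9 genes they lay wholly above the WT brains, the exceptions being Tac1 and Pde10a, against 16.4% of all genes tested whose groups did not overlap. Some margins were small, as for Ppp1r1b with 4188 normalised counts in tRNA-Phe-3-1-/- replicate C and 4078 in WT replicate B. The 9 genes went together between brains, so the 7 are not separate observations. No gene of the 9 had groups apart from WT in tRNA-Phe-1-1-/- (25.2% of all genes tested) or tRNA-Phe-2-1-/- (11.4%). Without WT replicate C, the 9 log2 ratios had a median of 0.02 in tRNA-Phe-1-1-/-, 0.67 in tRNA-Phe-2-1-/- and 0.52 in tRNA-Phe-3-1-/-, with 5, 9 and 9 of 9 estimates above WT and 0 called. Without tRNA-Phe-1-1-/- replicate A instead, the median in tRNA-Phe-1-1-/- was 2.23, and 8 of the 9 genes had an unadjusted p under 0.05 but 0 were called (lowest adjusted p = 0.088, limma). Without both low brains, the medians were 1.30, 0.67 and 0.52, and again 0 were called.

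**Figure D2:**
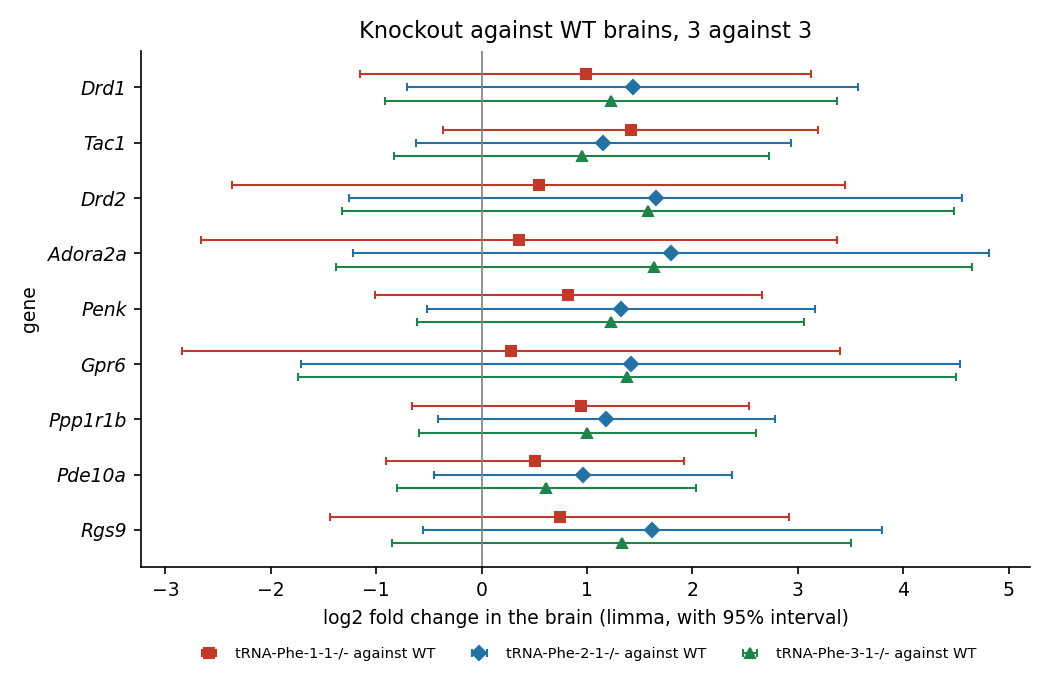
Log2 fold change of the 9 genes in each knockout against WT (limma, 3 brains against 3), with 95% intervals as bars. Every estimate is above 0 and every interval includes 0.

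Between the knockouts, no gene of the 9 was called either: 0 in tRNA-Phe-1-1-/- against tRNA-Phe-2-1-/- (0.53% of all genes), 0 in tRNA-Phe-1-1-/- against tRNA-Phe-3-1-/- (2.11%) and 0 in tRNA-Phe-2-1-/- against tRNA-Phe-3-1-/- (0%). The test of any difference among the 4 genotypes called 0 of the 9, against 0.634% of all genes, with a lowest adjusted p of 0.62 for Tac1 (moderated F-test of limma). Tac1 was the only gene of the 9 with a higher estimate in tRNA-Phe-1-1-/- than in the other knockouts, by 0.26 and 0.47 on the log2 scale, where the other 8 had lower estimates there in limma. Against tRNA-Phe-2-1-/- these were -0.44 for Drd1, -1.11 for Drd2, -1.45 for Adora2a, -0.50 for Penk, -1.14 for Gpr6, -0.24 for Ppp1r1b, -0.45 for Pde10a and -0.88 for Rgs9, and against tRNA-Phe-3-1-/- they ran from -1.28 (Adora2a) to -0.061 (Ppp1r1b). The count tests turned some of these directions: in edgeR and in DESeq2, 8 of 9 estimates were higher in tRNA-Phe-1-1-/- than in tRNA-Phe-3-1-/- (medians 0.16 and 0.17) and 3 of 9 higher than in tRNA-Phe-2-1-/-, with 0 called. Without tRNA-Phe-1-1-/- replicate A, all 9 estimates were higher in tRNA-Phe-1-1-/- than in either other knockout, with 0 called. In tRNA-Phe-2-1-/- against tRNA-Phe-3-1-/- the 9 estimates ran from 0.031 (Gpr6) to 0.35 (Pde10a).

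The 9 genes moved together from brain to brain. Over the 12 brains, Pearson's r of the log2 values ran from 0.87 (Tac1 with Adora2a) to 0.99 (Drd2 with Adora2a) in the 36 pairs, and Spearman's rho from 0.90 to 1.00. All 36 pairs had an adjusted permutation p of at most 3e-05 for r and 0.00022 for rho (100000 resamples, adjusted over the 36 pairs). Leaving out the 2 brains farthest from the median of the first gene of a pair kept r between 0.85 and 0.99. In 29 of the 36 pairs these were WT replicate C and tRNA-Phe-1-1-/- replicate A. After the mean of each genotype was taken away, r was 0.92 to 1.00 in the 36 pairs, with adjusted permutation p of at most 0.0062 over the 1296 within-genotype arrangements. The brains share their dissection and library within each point, so these values describe how the genes go together and not the number of independent samples. The genes were chosen with their spread between brains known, and these p-values are no independent support for it.

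A difference of log2 values within a brain is unaffected by an equal dilution of both genes, and the differences between pathways varied less than the genes themselves. Drd1 minus Drd2, on the log2(normalised count + 1) scale, had an SD of 0.59 over the 12 brains, against 1.33 for Drd1 and 1.79 for Drd2. It was highest in the 2 low brains, 3.68 in tRNA-Phe-1-1-/- replicate A and 3.36 in WT replicate C, and lay between 1.75 and 2.62 in the other 10. Drd1 was thus less low than Drd2 in those brains. The difference from WT was 0.45 in tRNA-Phe-1-1-/- (exact permutation p = 0.5, two-sided), -0.22 in tRNA-Phe-2-1-/- (exact permutation p = 0.8) and -0.35 in tRNA-Phe-3-1-/- (exact permutation p = 0.6).

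Tac1 minus Penk, the peptides of the direct and indirect pathways, gave the tightest groups. Its values were -1.89, -1.98 and -1.77 in WT replicates A, B and C. They were -1.25, -1.37 and -1.25 in tRNA-Phe-1-1-/- brains, where the low replicate A sat with B and C although its Tac1 count was about as low as that of WT replicate C. In tRNA-Phe-2-1-/- brains they were -2.20, -1.95 and -1.99, and in tRNA-Phe-3-1-/- brains -2.24, -2.21 and -2.03. All 3 tRNA-Phe-1-1-/- brains therefore lay above the other 9 brains, and all 3 tRNA-Phe-3-1-/- brains below the WT brains. Within tRNA-Phe-1-1-/-, Tac1 and Penk each spanned 10.1-fold, against 40.1-fold for Drd2, 53.3-fold for Adora2a and 96.2-fold for Gpr6. Drd1 and Rgs9 spanned 17.4-fold and 13.7-fold there, and Ppp1r1b and Pde10a less, 6.47-fold and 4.65-fold. How much of the peptide RNA in replicate A came from cells outside the striatum was not tested.

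The mean of Tac1 minus Penk was -1.29 ± 0.07 in tRNA-Phe-1-1-/- and -1.88 ± 0.11 in WT (SD, n = 3 each), a difference of 0.59 or 1.51-fold more Tac1 relative to Penk. The exact permutation p was 0.1 (two-sided), the smallest that 3 brains against 3 allow, and 0.3 after adjustment over the 6 ratio tests. tRNA-Phe-3-1-/- brains differed from WT by -0.28 (exact permutation p = 0.1, adjusted 0.3) and tRNA-Phe-2-1-/- brains by -0.17 (exact permutation p = 0.2, adjusted 0.4). A pseudocount of 0.1 in place of 1 left these differences at 0.59, -0.28 and -0.17.

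**Figure D3:**
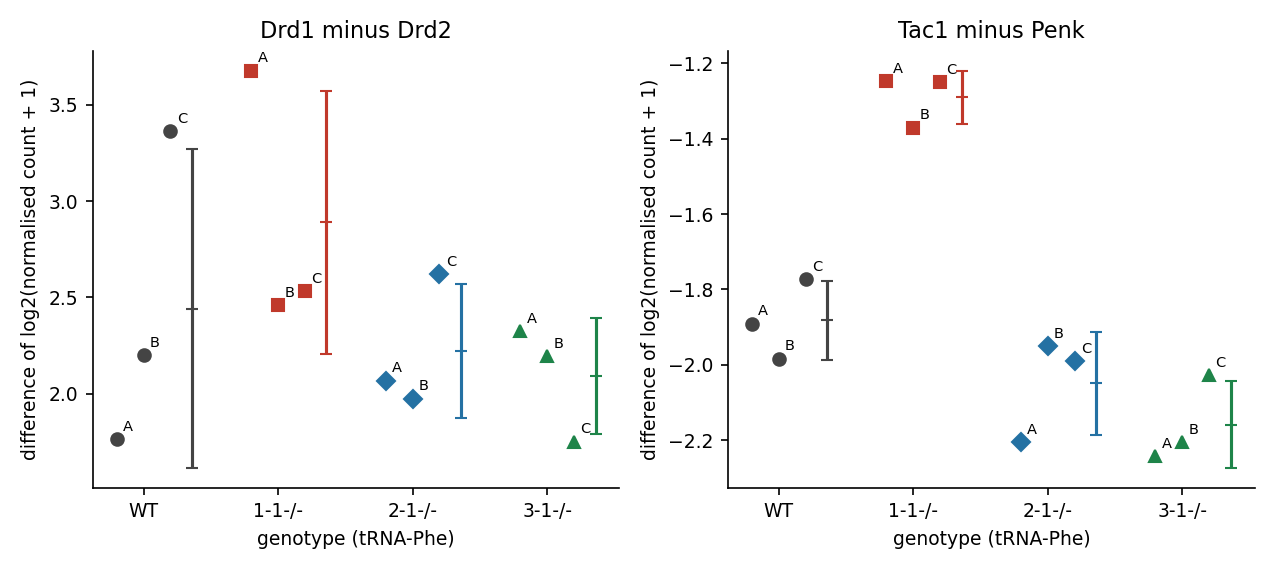
Differences of log2(normalised count + 1) within each brain, Drd1 minus Drd2 (left) and Tac1 minus Penk (right), by genotype; points are brains with their replicate letter and bars the mean with its SD. On the right the 3 tRNA-Phe-1-1-/- brains, at -1.37 to -1.25, lie above the other 9.

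**Figure D4:**
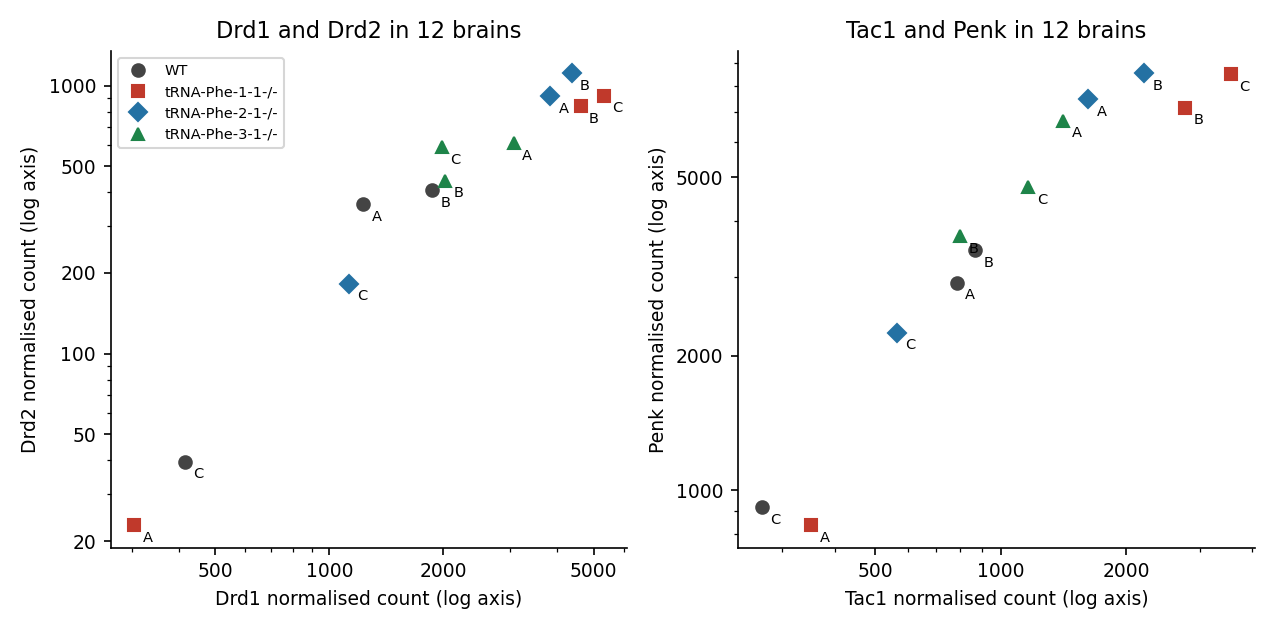
Normalised counts (log axes) of Drd1 and Drd2 (left) and of Tac1 and Penk (right) in 12 brains, one point per brain with its replicate letter. In both panels WT replicate C and tRNA-Phe-1-1-/- replicate A lie at the lower end, and on the right the tRNA-Phe-1-1-/- brains are displaced towards more Tac1 for their Penk.

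A fit with the score of 28 further striatal genes as a covariate compared the genotypes after a linear adjustment of each gene for this score. Every WT brain had a score below 0 (-0.42, -0.20 and -1.23 in replicates A, B and C). The adjustment and the genotype are thus not fully separate. In this fit, made with all 12 brains only, Tac1 was the only one of the 9 genes to be called. It rose in tRNA-Phe-1-1-/- against tRNA-Phe-2-1-/- by 0.65 on the log2 scale (SE 0.10, adjusted p = 0.022, limma) and against tRNA-Phe-3-1-/- by 0.66 (SE 0.10, adjusted p = 0.013, limma). Of all genes, 0.681% and 2.25% were called in these comparisons. Against WT, Tac1 had a log2 fold change of 0.36 with a 95% interval of 0.13 to 0.58 and was not called (adjusted p = 0.18, limma, where 0.312% of all genes were called). In the same comparison Gpr6 had -1.54 (95% interval -2.35 to -0.74, adjusted p = 0.11), Adora2a -1.40 (-2.21 to -0.60, adjusted p = 0.15) and Drd2 -1.16 (-1.83 to -0.49, adjusted p = 0.15), larger estimates than that of Tac1 and in the other direction, which limma did not call either. The F-test over the 4 genotypes called Tac1 (adjusted p = 0.034) and 0.494% of all genes. The other 8 genes had estimates below 0 in every knockout against WT in this fit, as had Tac1 in tRNA-Phe-2-1-/- and also in tRNA-Phe-3-1-/-, where all had been above 0 without the covariate, and none was called.

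The 28 further striatal genes, among them an adenylyl cyclase, G protein subunits and transcription factors of these neurons, went the same way as the 9. Their score was lowest in tRNA-Phe-1-1-/- replicate A at -1.33 and WT replicate C at -1.23, and highest in tRNA-Phe-2-1-/- replicate B at 0.87. For 16 of the 28, those 2 brains were the lowest of the 12, and their median within-genotype SD was 0.69. None of the 28 passed the test in any knockout against WT in limma. At an unadjusted p under 0.05 in limma there were 5 in tRNA-Phe-1-1-/- (15.9% of all genes were), 3 in tRNA-Phe-2-1-/- (5.57%) and 2 in tRNA-Phe-3-1-/- (12.3%), so these counts were near or below those of all genes in the first and last and above it in the other. DESeq2 called 2, 0 and 2 of the 28, against 4.55%, 0.0988% and 1.93% of all genes, and edgeR 0 in each, against 0.973%, 0% and 0%. The estimates were above WT for 27, 28 and 26 of the 28, with medians of 0.66, 0.84 and 0.75 on the log2 scale.

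Dlx6, a homeobox gene of developing forebrain GABA neurons, had the lowest p of the 28 in all 3 comparisons. It differed from the 9 genes in that the WT brains lay close together. That every WT brain was below the median of the 12 brains was also the case for 8 of the 9 genes. Dlx6 had 74, 78 and 55 normalised counts in WT, 133, 245 and 256 in tRNA-Phe-1-1-/-, 185, 236 and 99 in tRNA-Phe-2-1-/-, and 171, 155 and 131 in tRNA-Phe-3-1-/- brains. Every knockout brain was above every WT brain. Of all genes tested, 25.2% had groups apart from WT in tRNA-Phe-1-1-/-, 11.4% in tRNA-Phe-2-1-/- and 16.4% in tRNA-Phe-3-1-/-. The log2 fold changes were 1.55 (SE 0.32, adjusted p = 0.051, limma), 1.24 (adjusted p = 0.89) and 1.14 (adjusted p = 0.23). DESeq2 called Dlx6 in tRNA-Phe-1-1-/- (adjusted p = 0.00039) and in tRNA-Phe-3-1-/- (adjusted p = 0.049).

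Pdyn, which encodes prodynorphin, another peptide precursor of direct-pathway neurons, was next in tRNA-Phe-1-1-/-. It had 583, 1599 and 2192 normalised counts there against 525, 643 and 465 in WT, a log2 ratio of 1.23 (SE 0.41, adjusted p = 0.17, limma). DESeq2 called it (adjusted p = 0.0090). In tRNA-Phe-2-1-/- the second was Gpr149, an orphan receptor gene, with a log2 ratio of 1.90 (adjusted p = 0.89, limma), and in tRNA-Phe-3-1-/- it was Sp9, a transcription factor of indirect-pathway neurons, with 1.37 (adjusted p = 0.24, limma), which DESeq2 called (adjusted p = 0.044). Sp9 was also the gene of the 28 least like the 9, with 245 normalised counts in tRNA-Phe-3-1-/- replicate B, 138 in tRNA-Phe-1-1-/- replicate C and 128 in the otherwise low tRNA-Phe-1-1-/- replicate A. The olfactory bulb list was high in tRNA-Phe-3-1-/- replicate B and tRNA-Phe-1-1-/- replicate A too, with scores of 2.96 and 2.76 against at most 0.30 in the other brains, and its part in the values of Sp9 was not tested.

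Other marker lists showed which brains differed in what else they held. The 5 genes of cholinergic neurons, a group that includes the interneurons of the striatum, went with the 9 genes, with scores of -3.19 in tRNA-Phe-1-1-/- replicate A and -2.56 in WT replicate C and of -0.69 to 2.16 elsewhere. Their summed level was 102 to 293 normalised counts in WT, 52.7 to 1565 in tRNA-Phe-1-1-/-, 544 to 809 in tRNA-Phe-2-1-/- and 284 to 872 in tRNA-Phe-3-1-/-. tRNA-Phe-2-1-/- replicate C, the next lowest brain for the 9 genes, was the highest for the 8 choroid plexus genes (score 3.56), the 10 thalamus genes (2.88) and the 10 hippocampus genes (2.06). tRNA-Phe-3-1-/- replicate C was highest for the hypothalamus list at 4.97 and lowest for the 12 genes of cortical excitatory neurons at -1.43. The list of midbrain dopamine neurons, which also express Drd2, was highest in that brain as well, at 2.63. The 10 oligodendrocyte genes had scores of -1.26, -0.50 and -0.26 in tRNA-Phe-1-1-/- replicates A, B and C against 0.57, 0.38 and 0.30 in WT. Replicate A was the lowest of the 12, but scores also fell to -0.52 in tRNA-Phe-2-1-/- and -0.17 in tRNA-Phe-3-1-/-, with highest values of 0.74 and 0.86. The 5 red blood cell genes had -0.60, -0.64 and -0.91 in tRNA-Phe-1-1-/- against 0.09, 0.24 and 1.00 in WT. Their lowest score of the 12 was -1.13 in tRNA-Phe-2-1-/- replicate C. Both lists kept tRNA-Phe-1-1-/- and WT apart, as did 25.2% of all single genes tested. Both brains lowest in the 9 genes had cortical scores above 0, at 0.56 in WT replicate C and 0.33 in tRNA-Phe-1-1-/- replicate A. Brains that were not low in the 9 genes had such scores too, with 0.51 in WT replicate B and 0.23 in tRNA-Phe-2-1-/- replicate A. The lists of microglia and endothelial cells, which occur in all regions, ranged only from -0.20 to 0.11 and from -0.11 to 0.08. No gene of these lists was at 0 in all brains, and the part of these regions and cell types in the values of the 9 genes was not tested.

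**Figure D5:**
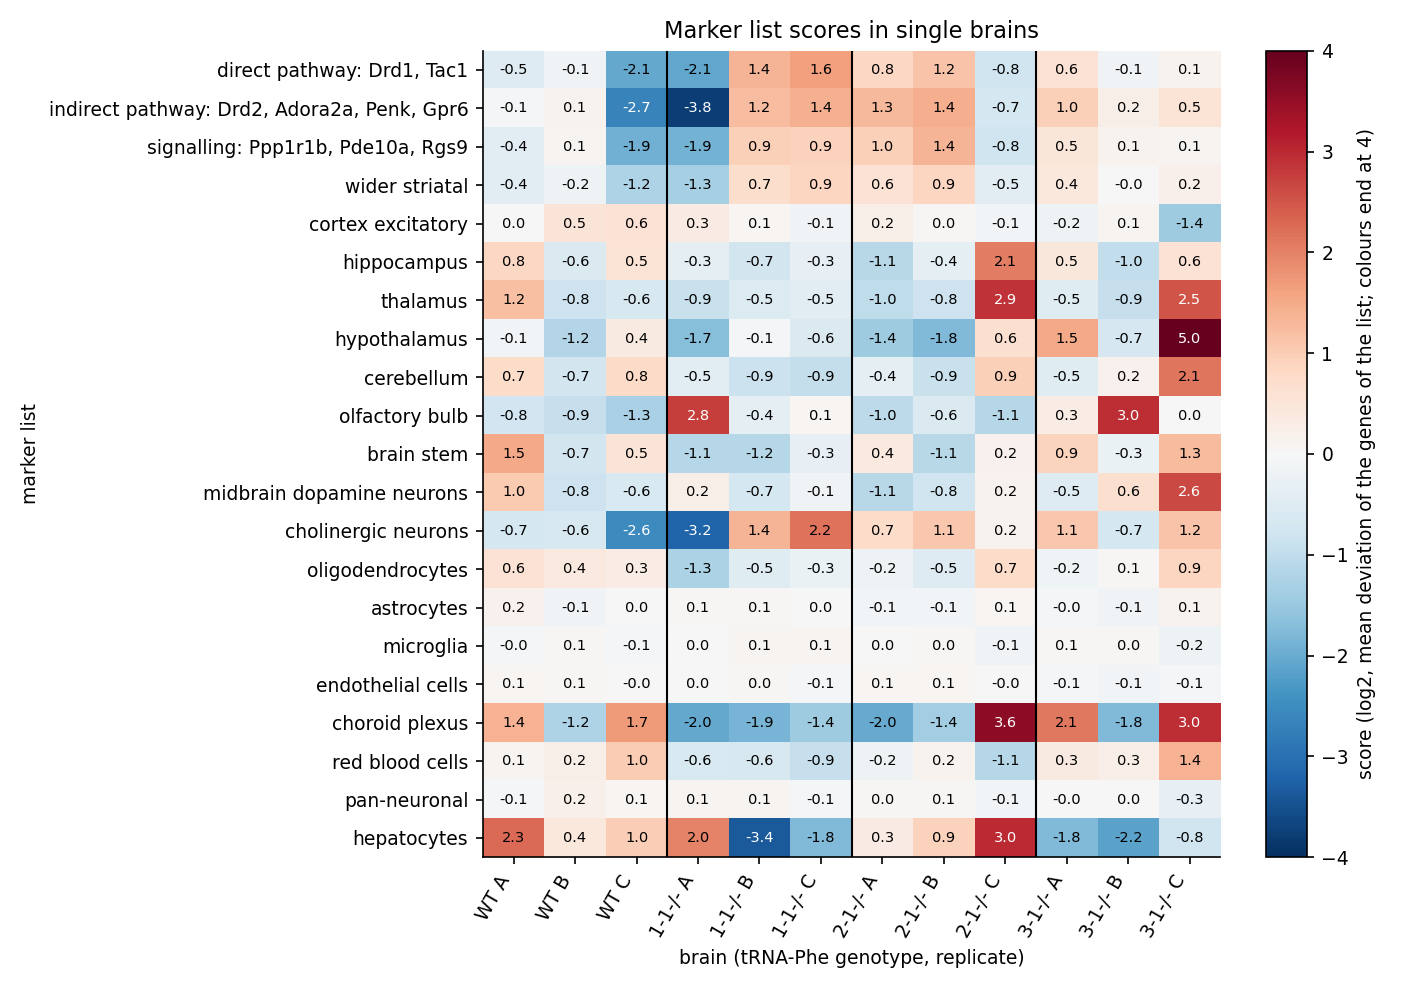
Score of each marker list (rows) in each brain (columns, in groups of 3 by genotype), as the mean log2 deviation of the genes of the list from their average over the 12 brains. The rows of the 9 striatal genes, the further striatal genes and the cholinergic neurons are lowest in WT C and 1-1-/- A, while the microglia and endothelial rows are near 0 throughout.

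Genes with a like pattern were sought among 15031 other genes averaging 50 normalised counts or more, by the r of their deviations from the genotype mean with the mean standardised deviation of the 9 genes over the 12 brains. Among the 10 most alike were Pde1b (r = 1.00), a phosphodiesterase, Syndig1l (0.99), Pde7b (0.99), another phosphodiesterase, Ido1 (0.99), Gm49702 (0.99), a predicted transcript, Sh3rf2 (0.98), Rarb (0.98), a retinoic acid receptor, Serpina9 (0.98), a serpin, and Gnal (0.98), the G protein subunit that couples the D1 and adenosine receptors to adenylyl cyclase in these neurons. 6 of the 10 belong to the 28 further striatal genes. Of the 28, 27 had the mean required here, and 19 of these had an r above 0.9, as had 0.619% of all genes compared. The lowest of the 27 were Sp9 at -0.01 and Gucy1a1, a subunit of guanylyl cyclase, at 0.54.

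Sequence upstream of the genes is shown because the 9 went together so closely. RefSeq (GRCm38.p6) gave the 250 bases before the start of 6 of the 9 genes, 8 sequences in all. Those of the most variable gene, Gpr6, of the D2 receptor gene and of Tac1, the peptide gene called only with the covariate, are printed. They run 5′ to 3′ on the strand of the gene. Capitals mark matches to the cyclic AMP response element TGACGTCA and to its part TGACG, on either strand. Gpr6 lies on the minus strand of chr10:41072291-41072540, Drd2 on the plus strand of chr9:49340153-49340402 and Tac1 on the plus strand of chr6:7554811-7555060.
Gpr6: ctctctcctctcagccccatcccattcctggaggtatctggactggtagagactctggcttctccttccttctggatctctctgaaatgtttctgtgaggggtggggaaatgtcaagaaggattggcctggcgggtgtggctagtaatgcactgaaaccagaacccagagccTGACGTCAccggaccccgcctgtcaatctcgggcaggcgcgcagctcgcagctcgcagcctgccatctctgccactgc
Drd2: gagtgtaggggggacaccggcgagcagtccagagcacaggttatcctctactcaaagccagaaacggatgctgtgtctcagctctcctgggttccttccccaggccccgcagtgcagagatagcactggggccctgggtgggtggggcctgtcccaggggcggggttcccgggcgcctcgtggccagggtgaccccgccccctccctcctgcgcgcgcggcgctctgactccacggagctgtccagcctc
Tac1: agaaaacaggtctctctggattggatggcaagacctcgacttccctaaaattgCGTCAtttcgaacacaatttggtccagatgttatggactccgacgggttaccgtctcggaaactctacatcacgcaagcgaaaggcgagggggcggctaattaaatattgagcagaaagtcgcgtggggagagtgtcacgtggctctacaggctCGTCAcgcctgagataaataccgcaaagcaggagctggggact

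The full element was found in Gpr6 alone, beginning 78 bases before the start, and in 1.55% of the 32851 upstream sequences in the table. The part TGACG was found on the reverse strand in Tac1 in 2 places and, within the full element, in Gpr6, against 17.8% of all upstream sequences. Neither was found in Drd2, whose window was the richest in G and C of the 3 at 68.8%, against 58.4% in Gpr6 and 51.2% in Tac1. The GC box GGGCGG was found in Drd2 in 2 places and in Tac1 in 1, and in 32.7% of all sequences. A match is only a run of letters in this window and does not show binding.

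The 9 messages differ in how often they call for phenylalanine, the amino acid that the deleted tRNA genes serve. In the reference transcripts of GENCODE vM39, the phenylalanine codons TTT and TTC made up 6.50% of the 446 codons of Drd1, a share above that of 94.5% of the 14877 tested genes with a coding sequence. They made up 6.09% of the 115 codons of the Tac1 precursor and 5.61% of the codons of Adora2a. At the other end, Ppp1r1b had 2 such codons among 194, or 1.03%, above only 2.45% of genes. The median over all genes was 3.60%, and 7 of the 9 lay above it. RNA abundance was measured here and not translation.

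Divided by the length of the reference transcript in kilobases, the median level over the 12 brains was highest for Ppp1r1b at 2109 normalised counts per kilobase, followed by Penk at 1535, Pde10a at 1416, Rgs9 at 1015, Drd1 at 508, Adora2a at 462, Tac1 at 425, Gpr6 at 218 and Drd2 at 182. On the log2 scale, neighbours in this order differed by less than the within-genotype SD of either gene. That SD leaves out that the genes went together between brains. Over the 12 brains, the SD of the log2 difference within a brain was 0.24 for Ppp1r1b and Penk and 0.26 for Rgs9 and Drd1. Both were below the distance of these neighbours. For the other neighbours this SD was above their distance, at up to 1.05 for Adora2a and Tac1. The closest neighbours were Penk and Pde10a, and Drd1, Adora2a and Tac1.

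The liver, which has no such neurons, served as a comparison, with its own normalisation and thus with no fold set across tissues. Drd1, Tac1, Drd2 and Gpr6 had 0 reads in all 12 livers, which allows up to 3 reads per library and covers counting error only. Penk was at 0 in 6 of 12 livers and reached 3.69 normalised counts. Adora2a had 26.1 to 140 normalised counts, Ppp1r1b 28.2 to 132, Pde10a 34.5 to 112 and Rgs9 11.9 to 24.9. In the 2 brains lowest in the striatal genes, WT replicate C and tRNA-Phe-1-1-/- replicate A, the 4 genes at 0 in liver were still present, with 415 and 305 normalised counts of Drd1, 268 and 352 of Tac1, 39.5 and 22.9 of Drd2 and 55.3 and 10.3 of Gpr6. Adora2a, at 103 and 44.7 there, had values that also occurred in liver on its separate scale.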

How the data were processed

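RNA sequencing of brain and liver (12 samples each, 3 per genotype and tissue) was analysed from the deposited tables. As the methods state, the authors used Trim Galore to trim and STAR to align (GRCm38.p6), Salmon to quantify transcripts, and DESeq2 on gene sums in each tissue. The deposited normalised counts are a signal, estimated counts that the authors scaled with a size factor for each sample. Tables of the authors' own comparisons (means, log2 fold changes, s-values) were not used. Since a size factor rests on all genes, a change of tissue composition passes into single genes unaltered.

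Every value was a whole multiple of one step per sample, and 100% gave whole reads (tolerance 0.1), 30365760 to 46225360 per brain and 32276896 to 51584522 per liver. Symbols came from Ensembl identifiers (GENCODE vM39, 93.2% matched), positions from RefSeq (GRCm38.p6). log2(normalised count + 1) was tested with limma 3.58.1 (R 4.3.3; variance trend, 12 brains, two-sided, Benjamini-Hochberg, threshold 0.05; genes with a mean of at least 10), after a test on simulated data. A fold change on this scale understates low genes. edgeR 4.0.16 and DESeq2 1.42.0 on recovered reads, other pseudocounts, filters and scalings, a replicate block, a covariate and leaving out each brain were alternatives. Pairs and ratios were tested by permutation (scipy 1.17.1). The 9 genes, the marker lists and the tests were chosen with earlier results of these data known.

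All 9 genes are covered in each comparison, by single values or by their range. Of the 28 further striatal genes, those past the threshold are named or, where fewer than 2 passed, those with the 2 lowest p-values, and of all other genes the 10 most alike in pattern, of which 1 is not reported here.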

Additional observations from a re-analysis of the deposited data

How the results depend on the processing

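With 3 brains per genotype, the intervals of the 9 genes spanned several-fold changes, and the effect of depth was not tested. In the 3 comparisons with WT, the 27 estimates of the 9 genes were refitted under 25 other settings. Of the 675 values, 639 kept their direction without a call, 36 changed direction and none was called (lowest adjusted p 0.088, limma). Many of the 639 could not have changed direction. Another filter, no variance trend, only the compared genotypes or the replicate block leave the estimate itself unaltered. So does leaving out a brain of a genotype that is not compared.

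With the score of the 28 further striatal genes as a covariate, 1 of the 9 genes (Tac1) was called in tRNA-Phe-1-1-/- against tRNA-Phe-2-1-/-, 1 in tRNA-Phe-1-1-/- against tRNA-Phe-3-1-/- and 1 in the F-test, against 0 without it. The log2 fold changes in tRNA-Phe-1-1-/- then were -0.28 (Drd1), -1.16 (Drd2), -1.40 (Adora2a), -0.27 (Penk), -1.54 (Gpr6), -0.00021 (Ppp1r1b), -0.31 (Pde10a) and -0.54 (Rgs9). In tRNA-Phe-2-1-/- they were -0.31 (Drd1), -0.30 (Tac1), -0.69 (Drd2), -0.61 (Adora2a), -0.18 (Penk), -1.09 (Gpr6), -0.11 (Ppp1r1b), -0.16 (Pde10a) and -0.14 (Rgs9). In tRNA-Phe-3-1-/- they were -0.28 (Drd1), -0.31 (Tac1), -0.44 (Drd2), -0.45 (Adora2a), -0.071 (Penk), -0.78 (Gpr6), -0.11 (Ppp1r1b), -0.36 (Pde10a) and -0.19 (Rgs9). The covariate itself is a striatal signal, and why the direction changed was not tested further.

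Leaving out one brain at a time, the log2 fold change in tRNA-Phe-1-1-/- against WT ran from -0.54 to 2.27 for Drd2, from -0.76 to 2.23 for Adora2a, from -0.85 to 2.38 for Gpr6 and from -0.042 to 1.97 for Rgs9, below 0 without WT replicate C and, for the first 3, without tRNA-Phe-1-1-/- replicate B or C. The median within-genotype SD ran from 0.85 (without tRNA-Phe-1-1-/- replicate A) to 1.503, and was 0.68 without both low brains, a setting chosen after seeing the data.

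Of the 28 further striatal genes, 0 were called in tRNA-Phe-1-1-/- against WT, but 1 (Dlx6) with a minimum mean of 50, 2 (Dlx6, Pdyn) by DESeq2 and 0 to 3 when one brain was left out: 3 (Dlx6, Pdyn, Strip2) without tRNA-Phe-1-1-/- replicate A and 1 (Dlx6) without tRNA-Phe-2-1-/- replicate C. DESeq2 called 2 (Dlx6, Sp9) in tRNA-Phe-3-1-/- against WT. The cause of these differences was not tested.

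Brains with the same replicate letter were alike in some pairs and not in others. Their deviations correlated at -0.16 to 0.49, above 0.1 in 7 of 18 pairs, and 7 of 12 brains were most like one of their own letter. Whether the letters stand for shared handling was not tested. With a replicate block, 0 of the 9 genes were called in each comparison.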
